A study of Mus musculus with 10 samples.

Results

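The 10 genes described here encode transcription factors of the liver, most of which are switched by small molecules made in the body or taken up with food and drugs. They are the oxysterol receptor LXRalpha (Nr1h3), the bile acid receptor FXR (Nr1h4), its target SHP (Nr0b2), the xenobiotic receptors PXR (Nr1i2) and CAR (Nr1i3), the retinoid X receptor RXRalpha (Rxra), the fatty acid receptors PPARgamma (Pparg) and PPARdelta (Ppard), the estrogen-related receptor ERRalpha (Esrra) and the aryl hydrocarbon receptor (Ahr). The genes were chosen by symbol: a row of the table counted when its platform annotation gave exactly 1 gene symbol, and that symbol was one of the 10. All 10 were found, of the 22180 genes that the array measures by a row naming that gene alone, and each had 1 such probe set. A further row lists Ppard together with a second gene and was not used. Ahr is grouped here for its role as a xenobiotic sensor; it belongs to the bHLH-PAS family and is not a nuclear receptor.

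The samples were 5 livers of mice lacking both macroH2A1 and macroH2A2, called double knockout here, and 5 wild-type livers. MacroH2A proteins are variants of histone H2A with a large additional domain. All mice were males of the strain 129/S6 (taconic), aged 2 months and fasted overnight for about 16 h, and all were killed in the morning, so the fast is shared by both genotypes and no fed animals were compared. How the alleles were made, and whether each array stands for a separate animal, could not be read from the labels; if any did not, the p-values measure only the spread between these samples. The values are log2 expression levels, on which a difference of 1 is a doubling, and a level is not compared between different genes.

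Nuclear receptors share a plan in which a zinc-finger domain reads short DNA elements built from the hexamer AGGTCA, and a pocket binds the ligand. LXRalpha, FXR, PXR, CAR and the PPARs bind DNA as dimers with RXRalpha, so that this single partner serves sterol, bile acid, drug and fatty acid sensing. SHP lacks the DNA-binding domain and represses other receptors by binding to them; FXR induces it when bile acids rise, and SHP in turn lowers bile acid synthesis. ERRalpha has no known natural ligand that rules it and drives genes of mitochondrial metabolism together with PGC-1 coactivators. The aryl hydrocarbon receptor waits in the cytosol bound to chaperones, and after binding a ligand pairs with ARNT at elements with the core GCGTG.

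In the arrays as a whole, medians lay between 6.43 and 6.46, correlations between arrays ran from 0.989 to 0.995, and 0 pairs were identical. Macroh2a1 stood at 9.02 to 9.18 in double knockout and 9.51 to 9.66 in wild-type livers, so that the genotypes did not overlap (-0.49, SE 0.048, limma adjusted p = 0.00128). Its double knockout levels still lay above the background guide described below. Macroh2a2 lay below the background guide described next and averaged 6.12 ± 0.19 in double knockout and 6.32 ± 0.28 in wild-type livers (SD, n = 5 each; limma adjusted p = 0.514). The hepatocyte markers averaged 13.39 ± 0.01 in double knockout and 13.39 ± 0.03 in wild-type livers (SD, n = 5 each). All 15 Kupffer cell and macrophage markers averaged higher in double knockout livers, 2 of them called (Cd163 and Marco), beside 0.332% of all probe sets called higher. Their mean per array spanned 8.75 to 9.07 in double knockout and 8.55 to 8.83 in wild-type livers. A fit with this mean as a covariate therefore cannot fully separate it from genotype. The 10 measured pancreas markers averaged 6.16 to 9.11 in double knockout and 6.20 to 11.52 in wild-type arrays, with the highest values in wild-type replicates 4 and 5 and double knockout replicates 1 and 2. In bulk liver RNA, fewer cells of a type and less RNA per cell cannot be told apart. The 1108 olfactory receptor probe sets served as a guide to background; the 95th percentile of their mean levels was 6.54, and all 10 receptor genes lay above it.

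None of the 10 receptor genes passed the test between genotypes (limma, Benjamini-Hochberg adjustment over 25335 probe sets, adjusted p under 0.05): the count was 0 of 10, where 0.884% of all tested probe sets passed. At an unadjusted p under 0.05 there were 2 of 10, Pparg and Nr1i3, both lower in double knockout livers, beside 15.1% of all probe sets in either direction and 7.60% in the lower direction. For 0 of 10 did the genotypes fail to overlap, against 3.90% of all probe sets, 1.75% without overlap on the higher and 2.15% on the lower side. Means were higher in double knockout livers for 3 genes and lower for 7, with a median log2 difference of -0.038, and -0.0030 over all tested probe sets. For 4 genes, Nr1h3, Nr1h4, Rxra and Ppard, the 95% interval of the difference lay within 0.2 of 0 on the log2 scale.

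**Figure D1:**
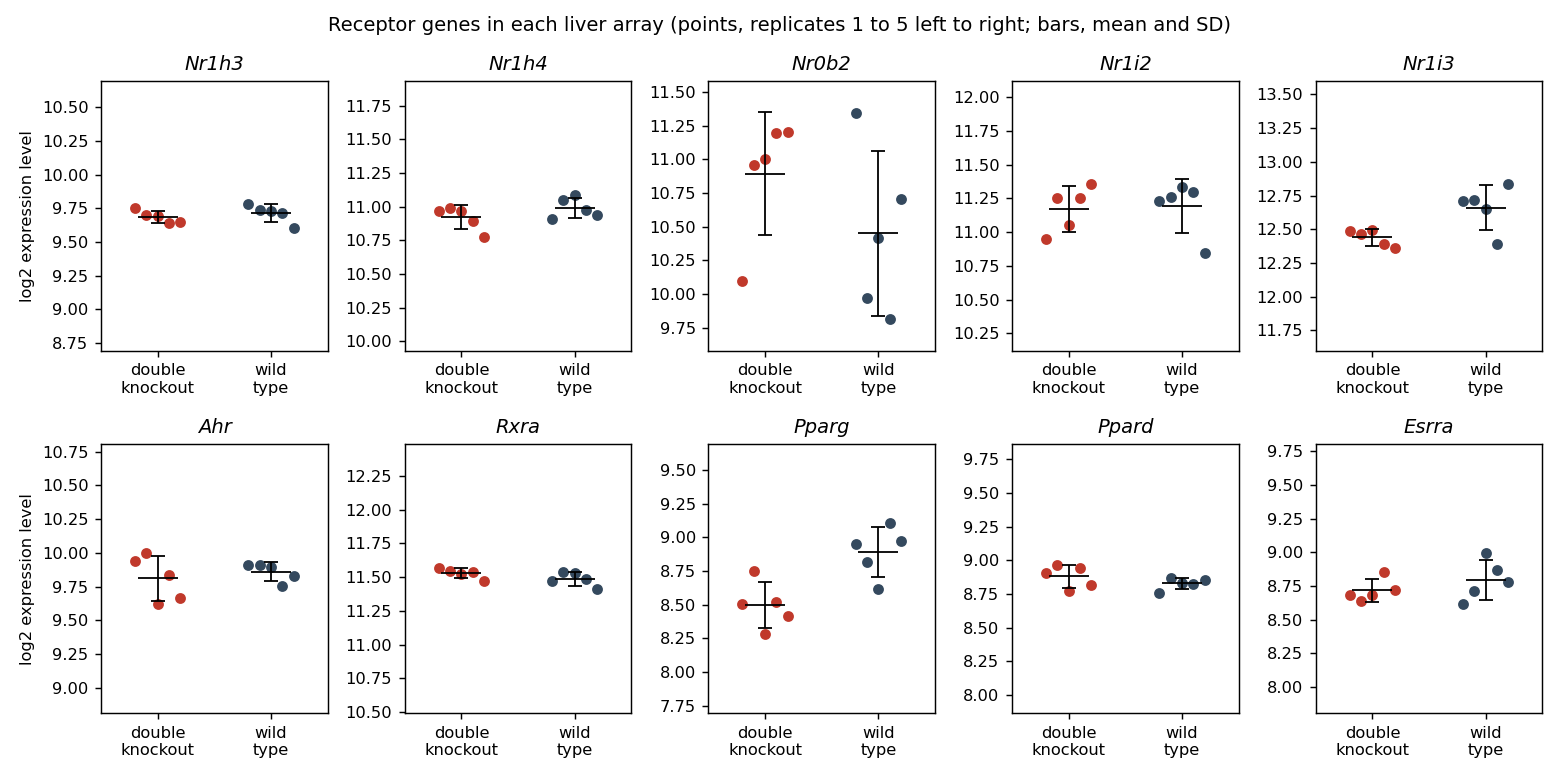
Log2 expression level (vertical axis, each panel spanning 2 log2 units) of each receptor gene in the 5 double knockout arrays (red, left) and the 5 wild-type arrays (dark, right), with mean and SD as bars. The Pparg and Nr1i3 means are lower in double knockout livers, with overlap at few arrays, Nr0b2 spreads over more than 1 log2 unit in both genotypes, and Rxra and Nr1h3 barely vary.

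The promoter windows of the 3 genes with the largest differences in size are shown because the receptors are known to act on one another's genes through such elements. Of the 10 genes, 9 matched the RefSeq promoter table (GRCm38.p6), with 13 windows of 300 bases from 250 before to 50 after an annotated start; Ahr did not match. The motifs, chosen after the windows had been read, were searched on both strands, and capitals mark their matches. The hexamer AGGTCA occurred in 4 of the 13 windows, of Nr1h4, Rxra and Pparg, and in 16.3% of all 32851 windows. The core GCGTG occurred in 4 of 13, of Nr0b2, Pparg, Ppard and Esrra, and in 32.4% of all; its 2 matches in Esrra overlap each other. The E-box CACGTG, which reads the same on both strands and is the element of the clock factors CLOCK and BMAL1, occurred in 2 of 13, of Nr0b2 and Nr1i3, and in 7.15% of all. The paired elements AGGTCANAGGTCA, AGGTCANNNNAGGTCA and AGGTCANTGACCT, of which AGGTCA is a part, occurred in 0 of 13 windows and in 0.0396%, 0.0152% and 0.00913% of all. A match is a run of letters, not a shown binding site, and which of the Pparg starts the liver uses was not tested.
Nr0b2, chr4:133553126-133553425, plus strand: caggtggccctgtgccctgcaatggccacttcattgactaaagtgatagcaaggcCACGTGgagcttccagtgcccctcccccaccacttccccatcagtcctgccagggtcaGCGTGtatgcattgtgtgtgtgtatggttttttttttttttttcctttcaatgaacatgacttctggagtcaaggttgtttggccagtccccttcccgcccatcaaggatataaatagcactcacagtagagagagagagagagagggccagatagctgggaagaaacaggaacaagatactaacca
Nr1i3, chr1:171213720-171214019, plus strand: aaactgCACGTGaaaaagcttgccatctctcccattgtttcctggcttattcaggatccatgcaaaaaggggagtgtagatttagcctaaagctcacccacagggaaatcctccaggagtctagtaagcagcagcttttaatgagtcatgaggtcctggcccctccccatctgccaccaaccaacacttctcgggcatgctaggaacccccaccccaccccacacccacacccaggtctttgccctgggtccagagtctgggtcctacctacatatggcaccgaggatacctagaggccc
Pparg, first start, chr6:115360894-115361193, plus strand: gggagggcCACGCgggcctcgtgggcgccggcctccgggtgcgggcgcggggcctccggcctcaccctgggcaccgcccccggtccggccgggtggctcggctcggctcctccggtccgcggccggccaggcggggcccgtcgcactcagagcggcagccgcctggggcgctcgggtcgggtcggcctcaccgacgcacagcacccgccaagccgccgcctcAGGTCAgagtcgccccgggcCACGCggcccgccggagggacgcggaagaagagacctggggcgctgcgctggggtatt
Pparg, second start, chr6:115362099-115362398, plus strand: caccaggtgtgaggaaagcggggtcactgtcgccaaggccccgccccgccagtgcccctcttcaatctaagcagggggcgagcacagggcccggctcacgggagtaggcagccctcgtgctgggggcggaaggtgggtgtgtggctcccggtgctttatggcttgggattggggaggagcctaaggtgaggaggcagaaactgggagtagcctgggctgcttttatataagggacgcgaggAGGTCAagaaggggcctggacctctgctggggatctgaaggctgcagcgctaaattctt
The third annotated Pparg start holds no match to these motifs. In the Nr0b2 window the CACGTG begins at -195 with the start as 0, and in the Nr1i3 window it begins at -244. The AGGTCA of the Pparg windows begins at -28 for the first start and at -9 for the second.

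Nr1h3 (probe set 17388177, chromosome 2) encodes LXRalpha, which is activated by oxysterols and induces genes of cholesterol efflux and fatty acid synthesis. Its level was 9.75, 9.70, 9.69, 9.64 and 9.65 in double knockout replicates 1 to 5, against 9.78, 9.74, 9.73, 9.71 and 9.61 in wild-type replicates 1 to 5. The groups overlapped almost completely, and the log2 difference was -0.026 (SE 0.044, 95% interval -0.12 to 0.069, limma adjusted p = 0.842). As a ratio of double knockout over wild type, this interval runs from 0.919 to 1.05.

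Nr1h4 (probe set 17244070, chromosome 10) encodes FXR, the bile acid sensor. Its level was 10.97, 10.99, 10.97, 10.89 and 10.78 in double knockout livers and 10.91, 11.05, 11.09, 10.97 and 10.94 in wild-type livers. The 2 lowest values were both from double knockout livers, and the other 3 lay inside the wild-type range. The log2 difference was -0.072 (SE 0.054, 95% interval -0.19 to 0.045, limma adjusted p = 0.584).

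Nr0b2 (probe set 17419622, chromosome 4) encodes SHP, the repressor that FXR induces. Its level was 10.10, 10.96, 11.00, 11.20 and 11.20 in double knockout livers, against 11.34, 9.98, 10.42, 9.81 and 10.71 in wild-type livers. The 2 arrays numbered 1 stood at the far side of their groups: double knockout replicate 1 was the lowest of its genotype and wild-type replicate 1 the highest of all 10. The means were 10.89 ± 0.46 in double knockout and 10.45 ± 0.61 in wild-type livers (SD, n = 5 each), and the pooled SD of 0.540 exceeded that of 99.4% of tested probe sets. The log2 difference of 0.44 (SE 0.28, 95% interval -0.17 to 1.05) did not pass (limma adjusted p = 0.512; exact two-sided permutation p = 0.238). Without replicate 1 of both genotypes the other 4 double knockout livers, at 10.96 to 11.20, all lay above the other 4 wild-type livers, at 9.81 to 10.71, and the difference was 0.86 (SE 0.17, limma adjusted p = 0.0248), in a comparison where 2.42% of all probe sets passed and 9.31% did not overlap (5.21% on the higher side). These 2 arrays held the extreme Nr0b2 values of their genotypes, so leaving them out widens the difference by construction. The shares are of probe sets whose extremes were not picked this way, so the fit is a description only. Leaving out only wild-type replicate 1 gave 0.66 and only double knockout replicate 1 gave 0.64, with limma adjusted p of 0.220 and 0.257. The mean of the olfactory receptor probe sets was 4.79, 4.91, 4.93, 4.87 and 4.86 in double knockout replicates 1 to 5, against 4.85, 4.80, 4.76, 4.82 and 4.77 in wild-type replicates 1 to 5. As with Nr0b2, replicate 1 was the lowest double knockout and the highest wild-type array. Among the other 4 of each genotype this did not hold, since the arrays with the 2 higher Nr0b2 levels had the 2 lower olfactory receptor means. With that mean as a covariate the Nr0b2 difference was 0.025 (SE 0.33, limma adjusted p = 0.993). The part of the background level in the result was not tested beyond this fit.

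In a list of 11 FXR and SHP targets, which counts Nr0b2 itself, 10 genes were measured and 0 passed in limma, beside 0.884% of all probe sets. At an unadjusted p under 0.05 stood 1 of 10, beside 15.1% of all, and the median difference was -0.063. Cyp7a1, the rate-limiting enzyme of bile acid synthesis that SHP represses, averaged 13.01 ± 0.34 in double knockout and 13.08 ± 0.28 in wild-type livers (SD, n = 5 each), a difference of -0.069 (limma adjusted p = 0.897). Cyp8b1, the sterol hydroxylase of cholic acid synthesis, differed by -0.066 and the bile salt export pump Abcb11 by 0.063. The 2 members of lowest p were Slc27a5, a bile acid CoA ligase, with -0.11 (SE 0.040, limma adjusted p = 0.208), and Apoc2, an activator of lipoprotein lipase, with -0.084 (limma adjusted p = 0.337). Cyp7a1, Cyp8b1 and Abcb11 were named after their values were seen.

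The LXR target list held 13 genes, of which 12 were measured, and 1 passed, beside 0.884% of all probe sets. In double knockout livers 9 of 12 averaged lower, beside 51.5% of all tested probe sets, and the median was -0.072. Lpl, which encodes the lipase that frees fatty acids from lipoproteins, rose by 1.13 (limma adjusted p = 0.00686, SE 0.15), with levels of 9.12, 9.25, 9.17, 9.38 and 9.14 in double knockout livers, against 7.88, 7.85, 8.38, 8.61 and 7.67 in wild-type livers. Every double knockout liver lay above every wild-type liver for this probe set, as for 1.75% of all probe sets, while the second Lpl probe set had a log2 difference of 0.07. The call was lost with the macrophage covariate (0.77, SE 0.18, limma adjusted p = 0.135) and with the olfactory receptor covariate (1.11, SE 0.21, limma adjusted p = 0.0664). The macrophage marker level was itself higher on average in double knockout livers, so that fit cannot fully separate it from genotype. Macrophages also express Lpl, and their part in the result was not tested further. At an unadjusted p under 0.05 stood 6 of 12, Lpl on the higher side and 5 on the lower side, beside 7.60% of all probe sets lower. Those 5, named after their values were seen, were the lipogenic regulator Srebf1 (-0.21), the sterol exporters Abcg5 (-0.17) and Abcg8 (-0.19), the desaturase Scd1 (-0.38) and the phospholipid enzyme Lpcat3 (-0.12), with limma adjusted p from 0.203 to 0.296. None of these 5 passed, and the cholesterol exporter Abca1 had -0.094 (limma adjusted p = 0.493).

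Among the xenobiotic receptors, Nr1i2 (probe set 17330323, chromosome 16) encodes PXR, which responds to many drugs and to some bile acids. Its level was 10.95, 11.26, 11.05, 11.26 and 11.36 in double knockout livers, against 11.23, 11.26, 11.34, 11.30 and 10.85 in wild-type livers. The ranges were nearly the same, and the lowest value of all was wild-type replicate 5. The log2 difference was -0.022 (SE 0.10, 95% interval -0.24 to 0.20, limma adjusted p = 0.951), the smallest of the 10 in size.

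Nr1i3 (probe set 17219231, chromosome 1) encodes CAR, which resides in the cytosol until drugs such as phenobarbital release it to the nucleus. Its level was 12.49, 12.46, 12.49, 12.39 and 12.36 in double knockout livers, against 12.71, 12.72, 12.65, 12.39 and 12.84 in wild-type livers. All 5 double knockout livers lay below the wild-type mean and 2 of them below every wild-type liver; the others overlapped with wild-type replicate 4 alone. The means were 12.44 ± 0.06 in double knockout and 12.66 ± 0.17 in wild-type livers (SD, n = 5 each). The log2 difference of -0.22 (SE 0.072, 95% interval -0.38 to -0.064) corresponds to a ratio of 0.857 (interval 0.769 to 0.956) and did not pass over all probe sets (limma adjusted p = 0.172). The exact two-sided permutation p over the 10 arrays was 0.0317, not adjusted, where 0.00794 is the smallest that 5 against 5 allows. Without wild-type replicate 4 the difference was -0.29 (SE 0.052, limma adjusted p = 0.0404), where 0.517% of all probe sets passed, and in the other 9 fits that left out 1 array the adjusted p ran up to 0.305. Wild-type replicate 4 had the lowest Nr1i3 level of its genotype, so leaving it out widens the difference by construction. It was also 1 of the 4 arrays with the highest pancreas markers, and without those 4 the difference was -0.28 (SE 0.059, limma adjusted p = 0.134). With macrophage marker level as a covariate it was -0.12 (SE 0.10, limma adjusted p = 0.717). That level was itself higher on average in double knockout livers, so this fit cannot fully separate it from genotype. The part of macrophages in the result was not tested further.

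Ahr (probe set 17280729, chromosome 12) had levels of 9.94, 10.00, 9.62, 9.84 and 9.67 in double knockout livers, against 9.91, 9.91, 9.90, 9.76 and 9.83 in wild-type livers. The 5 wild-type livers lay between the extremes of the double knockout livers, which had 2 values above and 2 below all of them. The log2 difference was -0.049 (SE 0.074, 95% interval -0.21 to 0.11, limma adjusted p = 0.822).

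Among the targets of the xenobiotic receptors no gene passed, and those of lowest p in the PXR and CAR lists lay on both sides. In the PXR list 11 of 14 genes were measured and in the CAR list 12 of 13, and 0 passed in either, beside 0.884% of all probe sets; at an unadjusted p under 0.05 stood 3 of 11 and 5 of 12, beside 15.1% of all, and the medians were -0.030 and 0.013. Cyp3a11, the main drug-oxidising P450 that PXR induces, had 11.40, 11.63, 11.50, 11.80 and 11.82 in double knockout livers, against 11.28, 11.22, 11.21, 11.42 and 11.30 in wild-type livers, a difference of 0.34 (SE 0.081, limma adjusted p = 0.0751). Double knockout replicate 1 and wild-type replicate 4 were the arrays at which its groups met. Abcc3, a transporter of the basolateral membrane that both receptors induce, had 11.58, 11.56, 11.52, 11.69 and 11.50 in double knockout livers, against 11.79, 11.83, 11.76, 11.70 and 11.97 in wild-type livers. Its groups did not overlap, as for 3.90% of all probe sets in either direction, and the difference of -0.24 (SE 0.056) had a limma adjusted p of 0.0738. Abcc4, another exporter and a CAR target, had a difference of 0.33 (SE 0.085, limma adjusted p = 0.0945), also without overlap, so that 2 exporters of the CAR list lay on opposite sides. Cyp2b10, the classical CAR target, averaged 8.26 ± 1.19 in double knockout and 8.06 ± 0.58 in wild-type livers (SD, n = 5 each), a spread that leaves its difference of 0.20 (SE 0.49, limma adjusted p = 0.90) unresolved; it was named after its values were seen. Of 9 AHR targets 8 were measured and 0 passed, with 2 of 8 at an unadjusted p under 0.05, beside the same 15.1%, and a median of -0.082. Of the 8, 4 lay above the background guide, while Cyp1a1, Cyp1b1, Ahrr and Aldh3a1 lay below it. Cyp1a1, Cyp1b1 and Ahrr were named after their values were seen. Nqo1, a quinone reductase, had -0.22 (SE 0.060, limma adjusted p = 0.113) and Aldh3a1, an aldehyde dehydrogenase whose mean lay below the background guide, had -0.12 (limma adjusted p = 0.266).

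Rxra (probe set 17368550, chromosome 2), the shared dimer partner, was among the steadiest genes of the table. Its level was 11.57, 11.55, 11.52, 11.54 and 11.47 in double knockout livers, against 11.47, 11.54, 11.53, 11.49 and 11.41 in wild-type livers. The pooled SD of 0.046 was smaller than that of all but 4.57% of tested probe sets. The log2 difference was 0.042 (SE 0.040, 95% interval -0.046 to 0.13, limma adjusted p = 0.694), so that a ratio outside 0.968 to 1.09 lies beyond the interval.

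Pparg (probe set 17461942, chromosome 6) encodes PPARgamma, the regulator of fat cell formation, which in liver promotes triglyceride storage and is also made by macrophages. It had the lowest p of the 10 genes. Its level was 8.51, 8.75, 8.28, 8.52 and 8.42 in double knockout livers, against 8.95, 8.82, 8.62, 9.10 and 8.97 in wild-type livers. Of the double knockout livers 4 lay below every wild-type liver, and replicate 2 lay above wild-type replicate 3 alone. The means were 8.50 ± 0.17 in double knockout and 8.89 ± 0.18 in wild-type livers (SD, n = 5 each). The log2 difference of -0.40 (SE 0.098, 95% interval -0.61 to -0.18) corresponds to a ratio of 0.760 (interval 0.656 to 0.881) and did not pass over all probe sets (limma adjusted p = 0.0846); the exact two-sided permutation p was 0.0159, not adjusted. The limma adjusted p was 0.0503 when wild-type replicate 3 was left out, 0.0582 when double knockout replicate 2 was, and 0.0503 to 0.227 over all 24 alternatives. The difference kept its sign in all 24, from -0.57 with macrophage marker level as a covariate to -0.34 without double knockout replicate 3. The macrophage markers had higher means in double knockout livers in 15 of 15 cases, and their part in the Pparg result was not tested beyond that covariate. Wild-type replicate 3 and double knockout replicate 2 were the only arrays at which the Pparg groups met, so leaving out either removes the overlap by construction. In those comparisons 5.33% and 5.61% of all probe sets did not overlap, but the array was not picked by their values.

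**Figure D2:**
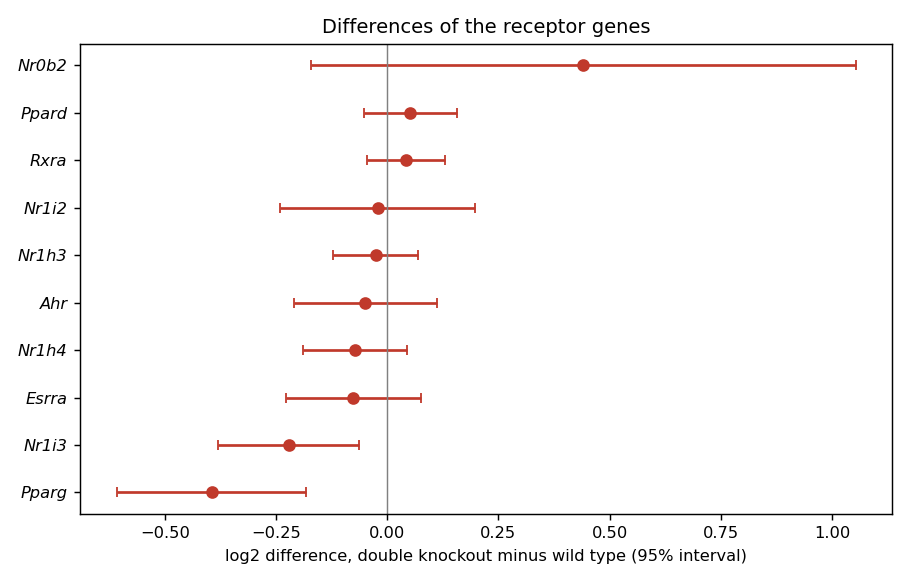
Log2 difference between double knockout and wild-type livers (points, horizontal axis) with its 95% interval (bars) for each receptor gene, ordered by difference. The intervals of Pparg and Nr1i3 lie below 0 before any adjustment over the table, and that of Nr0b2, from -0.17 to 1.05, is the widest.

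The PPARgamma targets lay on both sides. The PPARgamma target list had 10 of 11 genes measured; 1 passed, Lpl, which is also in the LXR list, beside 0.884% of all probe sets. At an unadjusted p under 0.05 stood 4 of 10, beside 15.1% of all, and the median was 0.038. Of 7 fat cell markers 6 were measured: Adipoq, Lep and Plin1 lay below the background guide by their mean over all arrays, and Fabp4, Cidec and Retn above it. The 6 averaged 7.20 to 7.53 per array in double knockout and 6.93 to 7.35 in wild-type livers. Of the 6, 0 passed, beside 0.884% of all probe sets. There were 2 of 6 at an unadjusted p under 0.05, both higher, beside 7.52% of all probe sets higher. Those 2, Fabp4 and Cidec, are PPARgamma targets as well as fat cell markers, with differences of 0.59 (limma adjusted p = 0.319) and 0.58 (limma adjusted p = 0.243). Adipoq, the hormone adiponectin, averaged 5.72 ± 0.12 in double knockout and 5.66 ± 0.06 in wild-type livers (SD, n = 5 each), and Retn, resistin, averaged 6.72 ± 0.17 in double knockout and 6.73 ± 0.18 in wild-type livers (SD, n = 5 each). The part of fat cells in these values was not tested. Mogat1, a monoacylglycerol acyltransferase, had -0.24 (limma adjusted p = 0.214), the same sign as Pparg. Apart from Lpl, these genes were named after their values were seen.

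Ppard (probe set 17335297, chromosome 17) encodes PPARdelta, a broadly expressed receptor of fatty acid oxidation. Its level was 8.90, 8.97, 8.77, 8.94 and 8.82 in double knockout livers, against 8.76, 8.87, 8.83, 8.83 and 8.85 in wild-type livers. Of the double knockout livers 3 lay above every wild-type liver and 2 lay inside their range. The log2 difference was 0.052 (SE 0.048, 95% interval -0.052 to 0.16, limma adjusted p = 0.674). Among targets shared between the PPARs, 10 of 13 were measured and 0 passed, beside 0.884% of all probe sets. Of the 10, 8 averaged higher in double knockout livers, where 51.5% of all tested probe sets averaged lower, and the median was 0.073. At an unadjusted p under 0.05 stood 4 of 10, all higher, beside 7.52% of all probe sets higher. Vnn1, a pantetheinase and a sensitive target of PPARalpha, had 12.24, 12.18, 12.26, 12.34 and 12.44 in double knockout livers, against 12.13, 11.98, 11.62, 11.76 and 11.31 in wild-type livers, without overlap. On the higher side 1.75% of all probe sets were without overlap. The Vnn1 difference was 0.53 (SE 0.13, limma adjusted p = 0.0751), and Ehhadh, an enzyme of peroxisomal oxidation, had 0.24 (SE 0.066, limma adjusted p = 0.117).

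Esrra (probe set 17362111, chromosome 19) encodes ERRalpha. Its level was 8.69, 8.64, 8.68, 8.86 and 8.72 in double knockout livers, against 8.61, 8.71, 9.00, 8.87 and 8.78 in wild-type livers. The double knockout livers all lay inside the wild-type range, and the log2 difference was -0.077 (SE 0.070, 95% interval -0.23 to 0.076, limma adjusted p = 0.669). Of 12 ERRalpha target genes, a list that counts Esrra itself, 11 were measured, with a median difference of -0.010. In limma 0 passed, beside 0.884% of all probe sets. At an unadjusted p under 0.05 stood 1 of 11, beside 15.1% of all. That gene was Pdk4, a kinase that shuts off pyruvate use in the fast and that the PPARs induce too, with 0.58 (SE 0.19, limma adjusted p = 0.178), and next came citrate synthase, Cs, with 0.12 (limma adjusted p = 0.364).

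**Figure D3:**
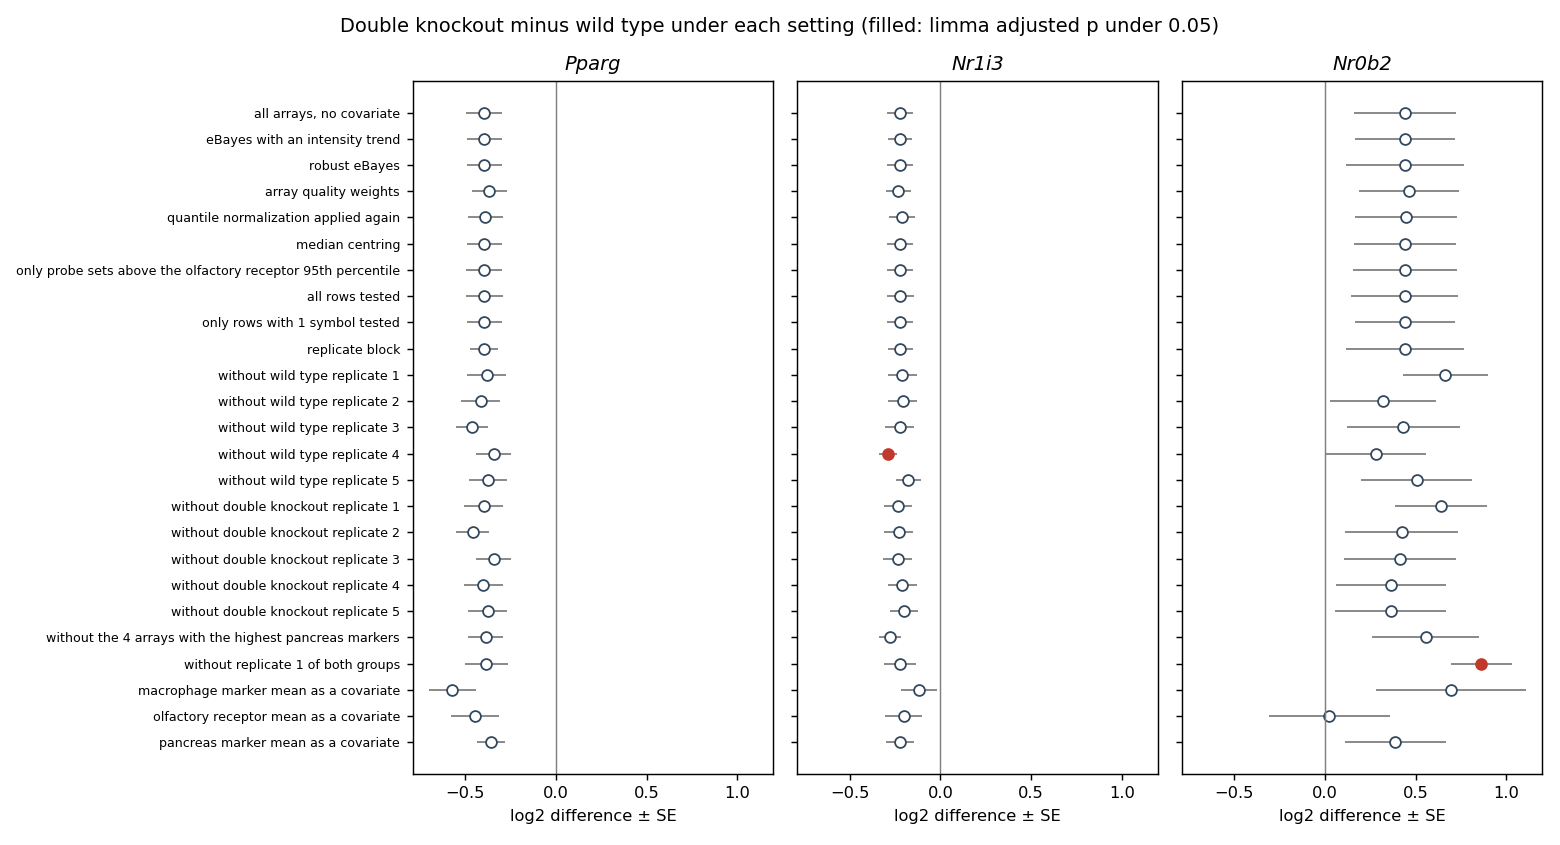
Log2 difference with its SE (horizontal axis) for Pparg, Nr1i3 and Nr0b2 with all arrays and under each of 24 alternatives (rows); filled points have a limma adjusted p under 0.05. Pparg stays between -0.57 and -0.34 with 0 filled points, Nr1i3 has 1 filled point without wild-type replicate 4, and Nr0b2 has 1 without replicate 1 of both genotypes and lies at 0.025 with the olfactory receptor mean as a covariate.

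The rest of the nuclear receptor family gave 3 called genes, all lower in double knockout livers. Of the 40 other nuclear receptors 36 had a probe set of their own, 3 of 36 passed, beside 0.553% of all probe sets called lower, and the median was -0.040. Nr3c2, the mineralocorticoid receptor, had 7.68, 7.73, 7.58, 7.54 and 7.66 in double knockout livers, against 7.97, 7.91, 7.90, 7.91 and 7.94 in wild-type livers, a difference of -0.29 (SE 0.045, limma adjusted p = 0.0152). Its second probe set had 0.02, so the difference belongs to 1 of 2 probe sets. Rxrg, the RXR isoform best known from muscle and brain, had 7.68, 7.69, 7.68, 7.72 and 7.65 in double knockout livers, against 7.92, 8.00, 7.78, 7.91 and 7.95 in wild-type livers. It fell by 0.23 (SE 0.045, limma adjusted p = 0.0402), and its call held in 1 of the 10 fits that left out an array, with adjusted p up to 0.111. The clock repressor Nr1d2 had 8.98, 9.03, 9.08, 8.89 and 8.87 in double knockout livers, against 9.30, 9.20, 9.36, 9.65 and 9.27 in wild-type livers. It fell by 0.38 (SE 0.078, limma adjusted p = 0.0461) and likewise held in 1 of those 10 fits, with adjusted p up to 0.114. Nr3c2 and Lpl held in all 10 of those fits but not under every alternative. For Nr3c2 the limma adjusted p was 0.131 with the macrophage and 0.106 with the olfactory receptor covariate, 0.0680 with the replicate number as a block and 0.0873 without the 4 arrays of highest pancreas markers, with differences from -0.33 to -0.28. For these 3 receptors every double knockout liver lay below every wild-type liver, as for 2.15% of all probe sets. With Nr5a2, which was not called, 4 of the 36 did so.

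Partners and coregulators showed 0 called genes among 17 measured of 21, beside 0.884% of all probe sets. At an unadjusted p under 0.05 stood 1 of 17, beside 15.1% of all, and the median was 0.0024. The 2 of lowest p were the corepressor Nrip1, with 0.13 (SE 0.057, limma adjusted p = 0.320), and the acetyltransferase Crebbp, with 0.088 (SE 0.041, limma adjusted p = 0.331). Over the 10 target, partner and receptor lists together, the 10 receptor genes left out, 126 of 145 genes were measured. Of these 4 passed, or 3.17%, beside 0.884% of all probe sets, with Lpl higher and Nr3c2, Rxrg and Nr1d2 lower. At an unadjusted p under 0.05 stood 34 of the 126, or 27.0%, beside 15.1% of all probe sets; the lists were written with earlier results of these data known, so this share is a description only.

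**Figure D4:**
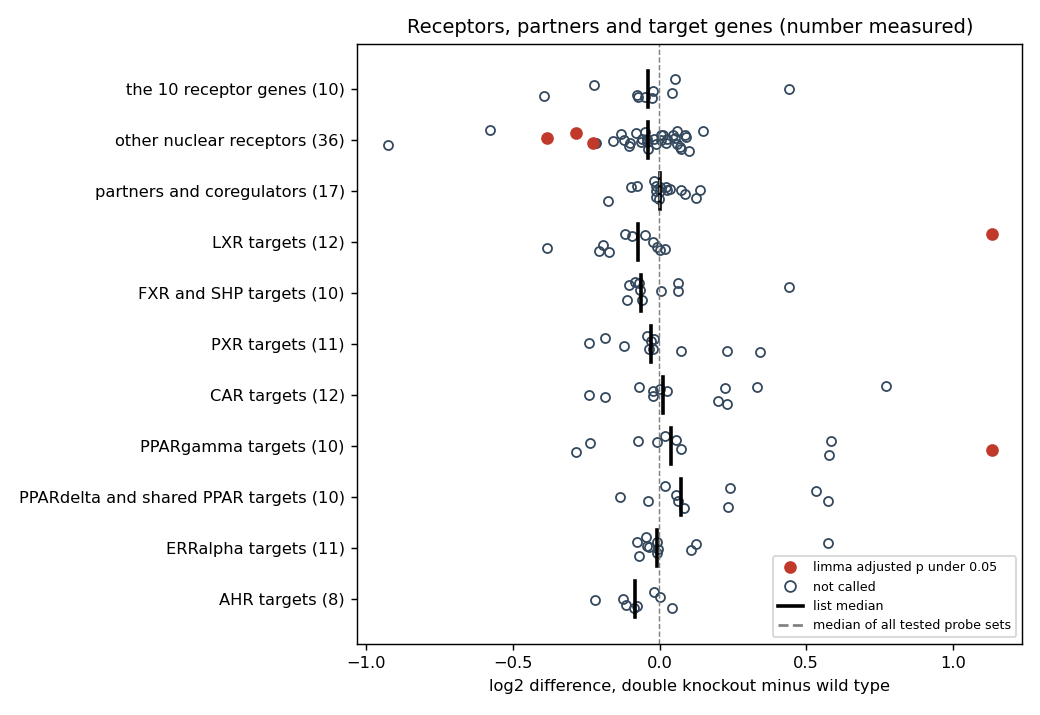
Log2 difference between double knockout and wild-type livers (horizontal axis) of every measured gene, by list (rows, number measured in brackets); filled red points have a limma adjusted p under 0.05, black bars are list medians and the dashed line is the median of all tested probe sets, -0.0030. List medians lie between -0.082 for AHR targets and 0.073 for PPARdelta and shared PPAR targets, and the called genes are Nr1d2, Nr3c2 and Rxrg on the lower side and Lpl, which stands in both of its lists, on the higher side. Of the 8 AHR targets, 4 lay above the background guide.

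The receptor genes were also compared with each other within genotypes, on deviations from the mean of each array's own group. Of 45 pairs, 0 passed an exact permutation test within groups after Benjamini-Hochberg adjustment, and the lowest adjusted p was 0.478 for Pearson's r and 0.316 for Spearman's rho. The closest pair was Nr1h4 with its partner Rxra, with r = 0.79 (exact permutation p = 0.0106) and rho = 0.81 (exact permutation p = 0.0158) over 10 arrays, and r = 0.74 without the 2 arrays farthest out for Nr1h4. Nr1i2 and Nr1i3 were opposed, with r = -0.65 (exact permutation p = 0.0984) and rho = -0.83 (exact permutation p = 0.00701), and r = -0.45 without the 2 arrays farthest out for Nr1i2.

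**Figure D5:**
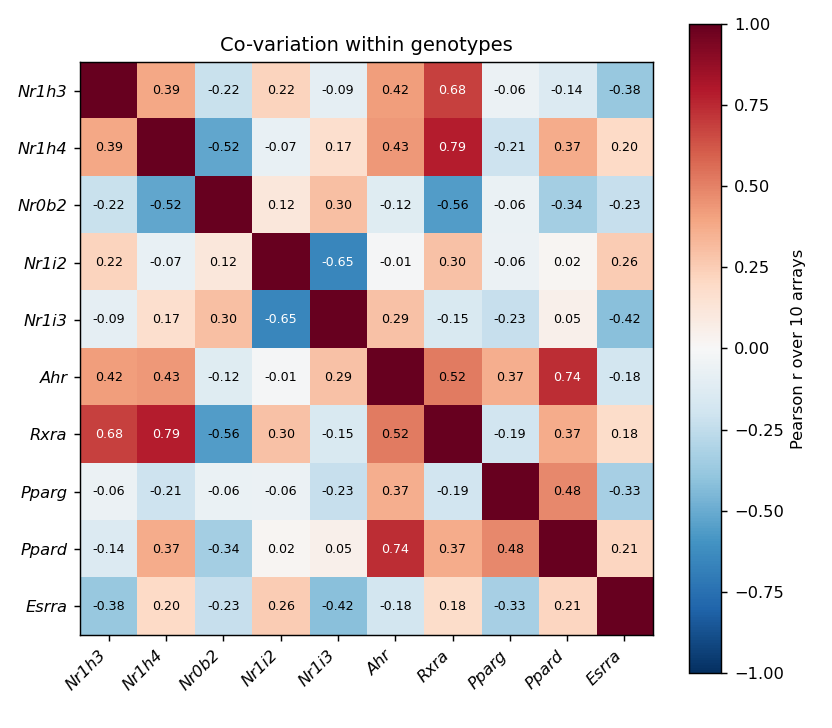
Pearson's r between each pair of receptor genes over 10 arrays, on deviations from the mean of each array's genotype (colour and printed value, red positive, blue negative). Nr1h4 with Rxra at 0.79 is the highest and Nr1i2 with Nr1i3 at -0.65 the lowest, and 0 of 45 pairs passed after adjustment.

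Among 12230 probe sets with 1 symbol above the background guide, the genes most like each receptor within genotypes were picked by Pearson's r over the 10 arrays; as the highest of many these values are descriptions, and the arrays share hybridisation and normalization. For Nr0b2 they were Speer4cos (r = 0.97, rho = 0.89) and Oser1 (r = 0.93, rho = 0.85), and for Pparg they were Cep192 (r = 0.93, rho = 0.87) and Pdlim5 (r = 0.93, rho = 0.90). Nr1i3 was most like Tgif2 (r = 0.92, rho = 0.92) and Ube2e2 (r = 0.92, rho = 0.73), and Nr1i2 most like Sf3a3 (r = 0.94, rho = 0.82) and Egln2 (r = 0.94, rho = 0.84). Rxra was most like Ube2d2a (r = 0.95, rho = 0.96) and Cyp2f2 (r = 0.94, rho = 0.95), Nr1h3 most like Camk1d (r = 0.96, rho = 0.96) and Smap2 (r = 0.94, rho = 0.88), and Nr1h4 most like Pglyrp2 (r = 0.93, rho = 0.81) and Tpcn1 (r = 0.92, rho = 0.85). For Ppard they were Abi3 (r = 0.92, rho = 0.85) and Dip2b (r = 0.92, rho = 0.83), for Esrra Tmem44 (r = 0.93, rho = 0.98) and Msc (r = 0.93, rho = 0.94), and for Ahr Kat6b (r = 0.95, rho = 0.92) and Themis2 (r = 0.94, rho = 0.88).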

How the data were processed

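The 10 livers were profiled on arrays from total RNA extracted with Trizol and labelled with the Ambion WT Expression Kit, per the labels' protocols. The authors deposited log2 expression levels for 41345 probe sets, for which the submitters' processing notes name Affymetrix Expression Console; the version, summarisation and normalization could not be read from labels or headers. Array medians agreed within 0.03, so no further normalization was applied. The number of arrays limits the precision, and no scanner files or batch labels were analysed here.

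Gene symbols came from the annotation of the platform: 23521 had 1 symbol, 1814 had several and 16010 had none. The 25335 with a symbol were fitted in limma 3.58.1 under R 4.3.3 (lmFit, eBayes, group as the only term), and double knockout was compared with wild type with Benjamini-Hochberg adjustment over all of them, calling an adjusted p under 0.05. For 95% intervals the residual degrees of freedom (8) and the prior ones (3.96) were added. A gene was represented by its probe set of highest mean. Receptor genes, lists and alternatives were chosen with earlier results of these data known. Named are the receptor genes, up to 4 called members per list or the 2 of lowest p, and the 2 genes of most similar pattern; others are marked. The labels do not state that replicate numbers pair animals, and same-numbered arrays did not deviate together (r from -0.48 to 0.13). Replicate numbers were therefore not used as a block in the main fit, and a block was fitted as an alternative. The fit was tested on simulated data. Chromosomes come from RefSeq, GRCm38.p6. Alternatives covered the variance model, weights, scaling, filters, covariates, thresholds and arrays left out.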

Additional observations from a re-analysis of the deposited data

Results flagged for a closer look

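In 2 of the 20 groups formed by 10 receptor genes and 2 genotypes, 1 array stood apart from the other 4 by a gap above Dixon's 95% critical value of 0.71 for 5 samples; chance alone marks about 1 in 20 groups. For Nr0b2, double knockout replicate 1 had a log2 level of 10.10, with the nearest other double knockout liver at 10.96 and a gap of 0.782 of the range. For Nr1i2, wild-type replicate 5 had 10.85, with the nearest other wild-type liver at 11.23 and a gap of 0.780 of the range.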

How the results depend on the processing

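Over 24 alternatives Pparg stayed between -0.57 and -0.34, Nr1i3 between -0.29 and -0.12 and Nr0b2 between 0.025 and 0.86, each with 1 sign. The calls were those of Nr1i3 without wild-type replicate 4 and of Nr0b2 without replicate 1 of both genotypes. In both, the arrays left out held extreme values of the gene itself, so these calls are descriptions only. Signs turned for differences near 0: Nr1i2, which ran from -0.11 to 0.035 leaving out 1 array, was 0.014, 0.0045, 0.035, 0.0089 and 0.044 without wild-type replicate 3, wild-type replicate 4, double knockout replicate 1, double knockout replicate 3 and replicate 1 of both genotypes; Rxra was -0.0028 without the 4 arrays of highest pancreas markers, Ppard -0.0024 with the macrophage covariate and Ahr 0.00036 with the olfactory receptor covariate. The 224 probe sets called became 377 above the olfactory receptor 95th percentile, 75 with all rows tested, 68 without the 4 pancreas arrays, 613 without replicate 1 of both genotypes, 20 with the macrophage and 53 with the olfactory receptor covariate, 585 at an adjusted p under 0.1, 45 under 0.01, 3829 at an unadjusted p under 0.05, and 64 to 253 leaving out 1 array. The 0 receptor genes called became 1 without replicate 1 of both genotypes, 1 at an adjusted p under 0.1, 2 at an unadjusted p under 0.05, and 0 to 1 leaving out 1 array, as did the 0 without overlap. The 4 list genes called became 2 with all rows tested, 1 without the 4 pancreas arrays, 0 and 1 with the macrophage and olfactory receptor covariates, 8, 1 and 34 at those thresholds, and 2 to 3 leaving out 1 array. The cause was not tested, beyond fewer samples or other thresholds. With the replicate number as a block 76 probe sets, 0 receptor genes and 1 list gene were called; same-numbered arrays correlated at -0.48 to 0.13 and 0 of 10 correlated best with its own number. Alternatives that use another probe set of a receptor gene gave no value, since each has 1.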

Other observations

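Other genes of the nuclear receptor and target lists did not pass the test and are given as values; they were picked after their values were seen. Nr4a1, an immediate early receptor, averaged 7.37 ± 0.07 in double knockout and 7.95 ± 0.54 in wild-type livers (SD, n = 5 each), a log2 difference of -0.58 (limma adjusted p = 0.203). The clock repressor Nr1d1 averaged 9.60 ± 0.38 in double knockout and 10.53 ± 0.58 in wild-type livers (SD, n = 5 each), with -0.93 (limma adjusted p = 0.116), the same sign as the called Nr1d2. Gadd45b, a stress gene that CAR induces, averaged 9.81 ± 0.52 in double knockout and 9.04 ± 0.80 in wild-type livers (SD, n = 5 each), with 0.77 (limma adjusted p = 0.326). Nr5a2, the receptor LRH-1 that SHP represses, had 10.20 to 10.35 in double knockout and 10.35 to 10.67 in wild-type livers, with -0.22 (limma adjusted p = 0.128).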
